A study of Mus musculus with 2 samples.

Results

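The nuclear genes of the respiratory chain were compared between gut epithelial cells of Lrrc19 KO mice and of WT mice, and nearly all of them read slightly lower in the Lrrc19 KO pool. Members were chosen by gene name alone. They were the genes of the array annotation named Nduf with a letter a, b, c, s or v and a number (complex I), Sdha to Sdhd (complex II), Uqcr (complex III), Cox4 to Cox8 (complex IV) and Atp5 (complex V). This rule took 164 of the 45101 probe sets, sets of short oligonucleotides against a transcript, some of which can match several, and gave 81 of the 18193 genes that had a probe set of their own. Complex I had 35 of these genes, complex II 4, complex III 8, complex IV 17 and complex V 17.

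The Lrrc19 KO sample was RNA mixed in equal parts from 5 mice lacking Lrrc19, and the WT sample was RNA mixed in the same way from 5 WT mice. Each pool held 2 males and 3 females of 6 weeks on the C57BL/6 background, and all animals were kept specific pathogen free. Intestine, with no segment named, was shaken in EDTA, and CD4, CD8 and B cells, dendritic cells and macrophages were removed with magnetic beads. Each pool was hybridized to 1 Affymetrix mouse array. With a single array per genotype there was no replicate check and no test could be made, the spread between mice is unknown, and every value below describes these 2 pools.

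The respiratory chain passes electrons from NADH (complex I) and succinate (complex II) through ubiquinone to complex III, and through cytochrome c to complex IV, where oxygen is reduced. Complexes I, III and IV pump protons across the inner mitochondrial membrane, and complex V, the ATP synthase, uses the gradient to make ATP. Some subunits of the proton-pumping complexes and of the ATP synthase are encoded by mitochondrial DNA, while all others, and all of complex II, are nuclear. Colonocytes draw much of their ATP from this chain by oxidizing butyrate.

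Facts of the arrays and of the cells bear on all values. The deposited values were linear intensities, and a gene was counted as measured when its brightest probe set reached the floor of 127, the median of all probe set values, in at least 1 pool. The log2 difference, Lrrc19 KO minus WT, had a median of 0.01 and a robust SD of 0.27 over the 12518 genes that did so. Probe sets of 1 gene differed from each other with a pooled SD of 0.22 over 4529 genes, and of 0.20 over 43 respiratory chain genes. The hybridization spike-ins, added in equal amounts by design, had a median log2 difference of 0.50 and were brighter on the Lrrc19 KO array in 18 of 18 probe sets. Centring on them shifts all genes by -0.50, so that any value given below as above 0 by less than this lies under 0 on that scale, the medians of smooth muscle and epithelial markers included. The ratio of the 3' to the 5' control probe set of Gapdh was 1.5 on the Lrrc19 KO array and 1.26 on the WT array, and that of Actb was 1.77 on the Lrrc19 KO array and 1.75 on the WT array. Lrrc19 itself had intensities of 212 and 20.9 on its 2 probe sets in the Lrrc19 KO pool, against 905 and 391 in the WT pool. Of the epithelial markers, 9 of 10 were measured, and Vil1, an actin bundler of the brush border, was at 5762 in the Lrrc19 KO pool and 5569 in the WT pool. All 6 smooth muscle markers were measured as well and had a summed intensity of 64091 in the Lrrc19 KO pool and 48259 in the WT pool, so markers of a tissue other than epithelium were present in both pools.

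Of the 81 respiratory chain genes, 77 were measured. Ndufb1, Ndufb4, Cox7b2 and Cox8b stayed under the floor in both pools. The log2 difference was below 0 for 71 of the 77 and above 0 for 6, so that 92.2% were below 0, against 47.9% of all genes measured, of which 52.1% were above 0. The median over the 77 genes was -0.14, with quartiles at -0.27 and -0.04, and the median of all genes was 0.01. No member was 2-fold lower (0.407% of all genes were). Only Cox7c read over 2-fold higher (0.559% of all genes did), and its WT value was under the floor, so that none was 2-fold higher with the floor in place of lower values. At a limit of 1.2-fold, close to the robust SD of all genes, 20 members were lower (26.0%, against 17.4% of all genes), 3 were higher (3.90%, against 16.7%, Cox7c among them) and 54 lay between. After loess the share at least 1.2-fold lower was 16.9% of members and 17.6% of all genes, so its excess was not seen on that scale. Most single differences were therefore smaller than the spread of all genes, and the feature of the set was a small difference in one direction. The same sign was seen over single probe sets, where 128 of the 148 that reached the floor were below 0, against 48.5% of all such probe sets on the array. In bulk RNA, fewer cells that express these genes and less of their RNA per cell cannot be told apart.

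**Figure D1:**
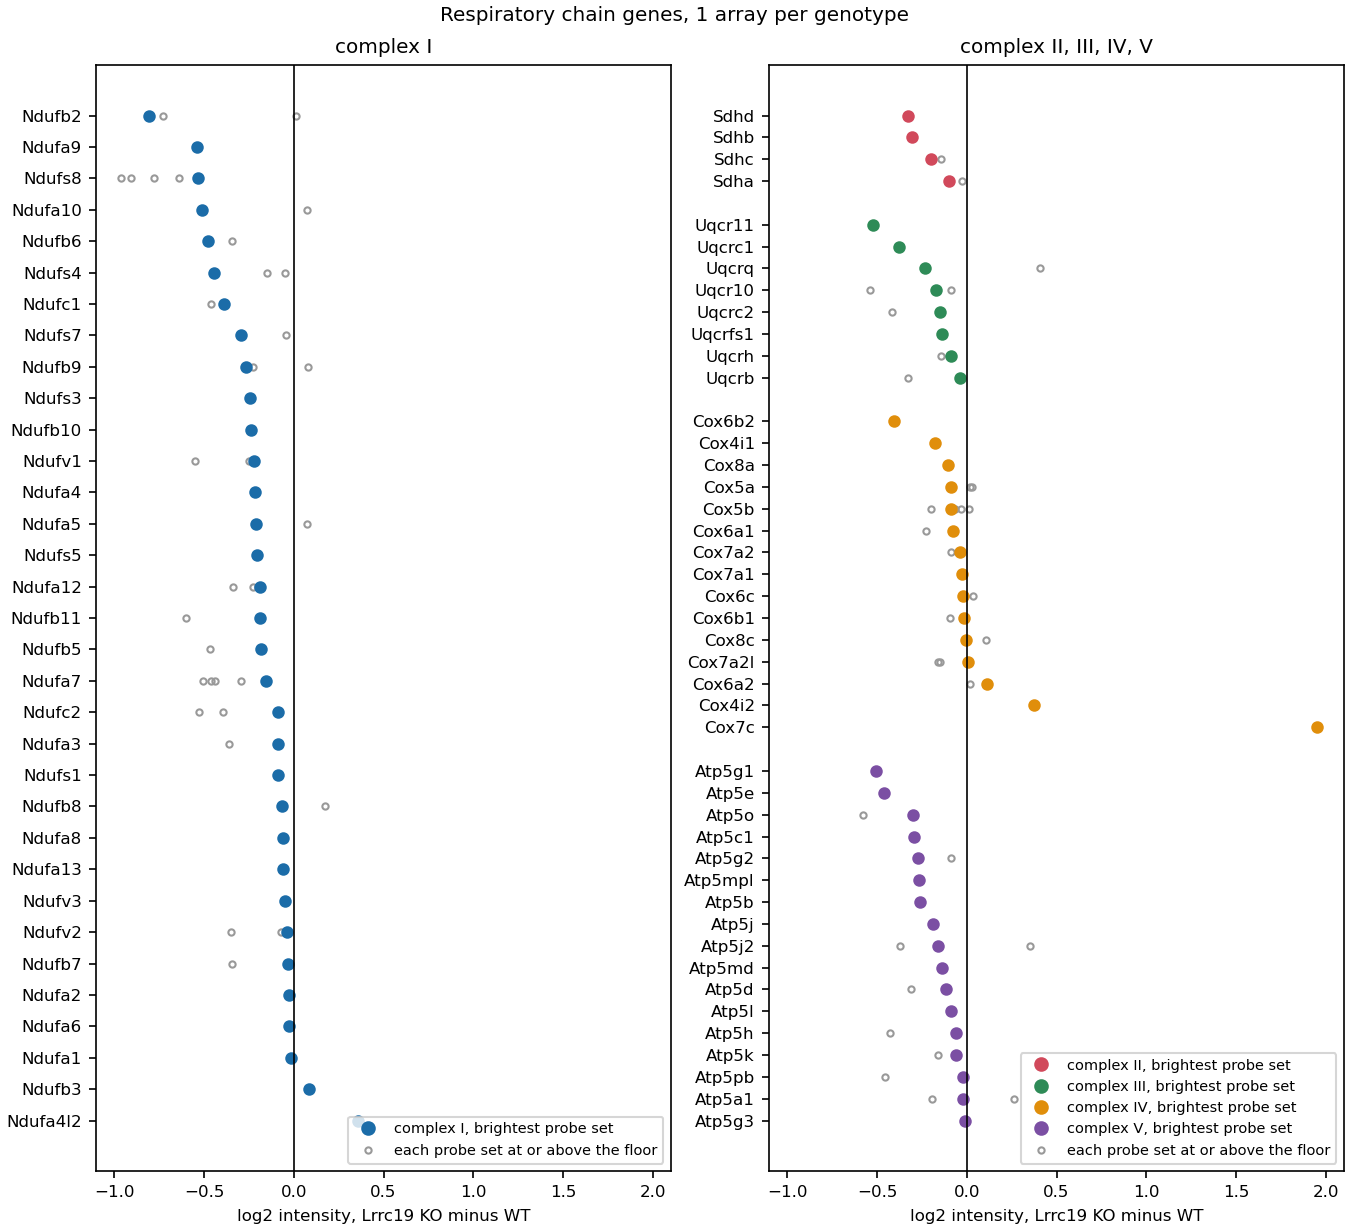
Log2 intensity difference, Lrrc19 KO minus WT (horizontal axis), of the 77 measured respiratory chain genes, with complex I on the left and complexes II to V on the right; filled points are the brightest probe set of a gene and open points are all its probe sets at or above the floor, without error bars, as each genotype had 1 array. Of the filled points 71 lie left of 0, and the point of Cox7c, whose WT value was under the floor, is not read as a measured difference.

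The complexes differed little in direction, with complex IV the most divided. All 4 measured genes of complex II, all 8 of complex III and all 17 of complex V were below 0. So were 31 of 33 of complex I and 11 of 15 of complex IV, against 47.9% of all genes measured. The medians were -0.19 for complex I, -0.25 for complex II, -0.16 for complex III and -0.16 for complex V, and they stayed below 0 under each scaling tried. That of complex IV was -0.03, and it was 0.016 after quantile normalization and 0.0075 after loess, so the sign of this median was not settled. Some genes of complex IV encode isoforms of particular tissues. As deposited, the 9 widespread isoforms had a median of -0.08, with 8 below 0, all but Cox7c. The 5 measured tissue isoforms had a median of -0.0059, with 3 below 0. After loess, which removes a smooth dependence of the difference on brightness, 57 of the 77 members were below 0, against 48.4% of all genes.

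Promoters of many respiratory chain genes are known targets of NRF1 and of GABP, an ETS family factor, and the stretch before the start site was searched because most members lay on the same side of 0. The 250 bases before the start, from the RefSeq table of GRCm38.p6, were at hand for 66 of the 81 members. The NRF1 core, a palindrome of 10 letters that can be read in capitals in the Cox6a1 window below, stood in 3 of them (4.55%, against 1.75% of 9768 measured genes and 1.21% of all protein-coding genes), the ETS core CCGGAAG on either strand in 12 (18.2%, against 14.6% and 10.2%), and the YY1 core AAGATGGC on either strand in 1 (1.52%, against 2.28% and 1.77%). Measured members with any of these motifs had a median log2 difference of -0.14 (14 genes), those with none had one of -0.16 (48 genes), and whether these medians differ was not tested. The 3 windows below show one member of each kind, each read 5′ to 3′ on the strand of its gene up to the base before the start, with motif letters in capitals. Uqcr11, lowest of complex III, has an ETS core 66 bases before the start (chr10:80406822-80407071, minus strand). Cox6a1, at -0.08, has an NRF1 core at 162 and an ETS core at 16 bases (chr5:115348959-115349208, minus strand). Ndufs8, lower on all 6 probe sets, has none (chr19:3912775-3913024, minus strand).
Uqcr11: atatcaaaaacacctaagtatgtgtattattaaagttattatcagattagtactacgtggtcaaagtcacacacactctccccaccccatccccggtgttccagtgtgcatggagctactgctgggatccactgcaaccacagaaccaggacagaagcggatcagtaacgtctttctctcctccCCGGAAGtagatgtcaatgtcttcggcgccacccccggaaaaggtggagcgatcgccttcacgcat
Cox6a1: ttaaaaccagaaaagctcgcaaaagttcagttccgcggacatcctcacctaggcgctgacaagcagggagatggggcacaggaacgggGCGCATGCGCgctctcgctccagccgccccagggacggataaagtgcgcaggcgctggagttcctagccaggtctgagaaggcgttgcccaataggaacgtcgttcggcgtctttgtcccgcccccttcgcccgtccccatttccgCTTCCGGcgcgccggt
Ndufs8: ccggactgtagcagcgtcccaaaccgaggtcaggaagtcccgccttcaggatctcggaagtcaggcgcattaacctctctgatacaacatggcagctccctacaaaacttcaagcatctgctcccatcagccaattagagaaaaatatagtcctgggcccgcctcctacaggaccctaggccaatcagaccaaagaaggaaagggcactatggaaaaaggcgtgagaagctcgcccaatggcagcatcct

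Complex I feeds electrons from NADH into the chain, and its core holds the flavin and the iron-sulfur clusters. All 6 measured core genes were below 0, with a median of -0.23 and a range from -0.53 to -0.04. Ndufs8, an iron-sulfur subunit of the arm that reduces ubiquinone, was read by 6 probe sets, 3 of which can match several transcripts. Its brightest probe set was at 3110 in the Lrrc19 KO pool and 4504 in the WT pool, and the 2 that differed most were at 903 and 1562 in the Lrrc19 KO pool, against 1764 and 2934 in the WT pool. The difference ran the same way on all 6, from -0.97 to -0.53, and none reached 2-fold. Ndufs7, another iron-sulfur subunit, was at 3130 in Lrrc19 KO and 3834 in WT (-0.29), and Ndufs3 at 3726 in Lrrc19 KO and 4416 in WT (-0.25). Ndufv1, the flavoprotein that binds NADH, was at 3189 in the Lrrc19 KO pool and 3723 in the WT pool, and its 3 probe sets ranged from -0.55 to -0.22. On their brightest probe sets, Ndufs1 (-0.09) and Ndufv2 (-0.04), which carry iron-sulfur clusters of the NADH arm, differed least. Dimmer probe sets gave -0.35 and -0.07 for Ndufv2 and -0.04 for Ndufs7. The order of these core genes thus depends on the probe set used.

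Accessory subunits surround the core and are needed for its assembly and stability. Of 27 measured, 25 were below 0, with a median of -0.19. Ndufb2, of the membrane arm, had the lowest value of all members, at 1047 in the Lrrc19 KO pool and 1835 in the WT pool (1.75-fold lower). A second probe set, which can match several transcripts, gave 1076 in the Lrrc19 KO pool and 1782 in the WT pool, whereas a dimmer one gave 468 in Lrrc19 KO and 465 in WT and showed no such difference. Ndufa9 was at 2317 in the Lrrc19 KO pool and 3367 in the WT pool (1.45-fold lower) on its single probe set. Ndufa10 (-0.51), Ndufb6 (-0.48), Ndufs4 (-0.45), whose loss in mice causes a fatal encephalopathy, and Ndufc1 (-0.39) came next in size. Dimmer probe sets at or above the floor gave 0.07 for Ndufa10, and -0.15 and -0.05 for Ndufs4. Those of Ndufb6 (-0.34) and Ndufc1 (-0.46) were nearer in size. The 2 accessory genes above 0 were Ndufb3, at 4515 in the Lrrc19 KO pool and 4259 in the WT pool (0.08), and Ndufa4l2. Ndufa4l2, a hypoxia-induced paralog of Ndufa4 and not an established subunit, was at 346 in the Lrrc19 KO pool and 270.3 in the WT pool (0.36), while Ndufa4, now counted with complex IV, was at 5061 in Lrrc19 KO and 5889 in WT (-0.22). The paralogs thus lay on opposite sides of 0, although the value of Ndufa4l2 turned to -0.14 when the arrays were centred on the spike-ins.

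**Figure D2:**
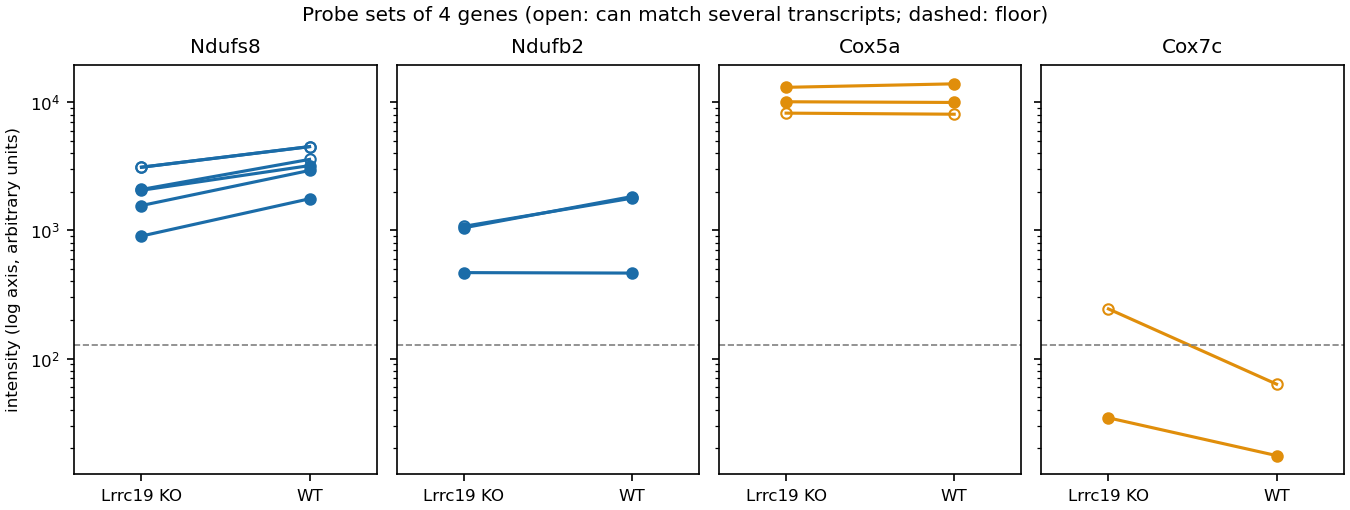
Intensity (log axis, arbitrary units) of each probe set of Ndufs8, Ndufb2, Cox5a and Cox7c in the Lrrc19 KO pool (left) and the WT pool (right of each panel), 1 array per genotype; lines join the values of 1 probe set, open symbols mark probe sets that can match several transcripts, and the dashed line is the floor of 127. All 6 probe sets of Ndufs8 are lower in the Lrrc19 KO pool, those of Cox5a are nearly level, and the WT values of Cox7c lie under the floor.

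Complex II is both an enzyme of the TCA cycle and an entry point of the chain. The membrane anchor Sdhd was at 3444 in the Lrrc19 KO pool and 4320 in the WT pool (1.25-fold lower). The iron-sulfur subunit Sdhb was at 4869 in the Lrrc19 KO pool and 6019 in the WT pool (1.24-fold lower). The other anchor, Sdhc, was at 1309 in Lrrc19 KO and 1506 in WT (-0.20), and the flavoprotein Sdha at 3217 in Lrrc19 KO and 3442 in WT (-0.10). All 4 were lower in the Lrrc19 KO pool, and the median of -0.25 was -0.15 when all probe sets of a gene were averaged, 3 of which were under the floor on both arrays (2 of Sdha and 1 of Sdhd). All 6 probe sets at or above the floor were below 0.

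Complex III hands electrons from ubiquinol to cytochrome c. Its smallest subunit, Uqcr11, was at 2696 in the Lrrc19 KO pool and 3871 in the WT pool (1.44-fold lower), and the core protein Uqcrc1 was at 4030 in Lrrc19 KO and 5231 in WT (1.30-fold lower). Uqcrq was at 5316 in the Lrrc19 KO pool and 6255 in the WT pool (-0.23), but a dimmer probe set of it was at 324 in Lrrc19 KO and 244 in WT (0.41) and would give the gene its value if probe sets that can match several transcripts were left out. The remaining 5 genes lay between -0.17 for Uqcr10 and -0.04 for Uqcrb, and the Rieske iron-sulfur protein Uqcrfs1 was at 6273 in the Lrrc19 KO pool and 6893 in the WT pool (-0.14). On their brightest probe sets all 8 were below 0, and 2 of them passed 1.2-fold.

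Complex V differed by part of the machine only within a narrow range. In the catalytic F1 part, the central stalk subunit Atp5e was at 3390 in the Lrrc19 KO pool and 4668 in the WT pool (1.38-fold lower). Of the head subunits, Atp5b, which carries the catalytic sites, was at 7454 in the Lrrc19 KO pool and 8924 in the WT pool (-0.26). Atp5a1 was at 10879 in Lrrc19 KO and 11035 in WT (-0.02), and its dimmer probe sets gave -0.20 and 0.26. On their brightest probe sets, the 5 F1 genes had a median of -0.26 and 5 other membrane subunits -0.14. The 4 genes of the peripheral stalk had a median of -0.12, with Atp5o (OSCP) lowest at -0.30. Dimmer probe sets gave -0.43 for Atp5h, -0.46 for Atp5pb and -0.58 for Atp5o of the stalk, and -0.31 for Atp5d of F1. The medians of these parts thus depend on the probe set used. The c ring, the rotor, is made from 3 genes that encode the same mature protein. Atp5g1 was at 3168 in the Lrrc19 KO pool and 4502 in the WT pool (1.42-fold lower), Atp5g2 at 3301 in Lrrc19 KO and 3992 in WT (1.21-fold lower), and Atp5g3 at 14028 in Lrrc19 KO and 14154 in WT (1.01-fold lower). The 3 genes for the same protein thus differed by unlike amounts. With all probe sets averaged, dim ones included, Atp5g1 was at -0.24 and Atp5g2 at -0.05.

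Complex IV reduces oxygen, and several of its nuclear subunits exist as a widespread isoform and an isoform of particular tissues. The widespread isoforms were nearly level. Cox4i1 was at 10529 in the Lrrc19 KO pool and 11890 in the WT pool (-0.18), Cox8a at 7355 in Lrrc19 KO and 7912 in WT (-0.11), and Cox6a1 at 19210 in Lrrc19 KO and 20301 in WT (-0.08). Cox7a2 (-0.04) and Cox6b1 (-0.02) differed less still. Cox5a had 1 probe set below 0 (-0.09) and 2 above (0.02 and 0.03). None of the 8 widespread isoforms other than Cox7c reached 1.2-fold. Among the tissue isoforms, the lung isoform Cox4i2 was at 192 in the Lrrc19 KO pool and 148 in the WT pool (0.38, and -0.12 when centred on the spike-ins), and the testis isoform Cox6b2 was at 149 in Lrrc19 KO and 197 in WT (-0.41), both close to the floor. The heart and muscle isoforms Cox6a2 (327 in the Lrrc19 KO pool and 303 in the WT pool) and Cox7a1 (895 in Lrrc19 KO and 911 in WT) and the testis isoform Cox8c (542 in Lrrc19 KO and 544 in WT) were within 1.1-fold. Of the skeletal and heart muscle markers, the 4 above the floor were higher in the Lrrc19 KO pool, with a median of 0.30. The brown fat marker Ucp1 was at 119 in the Lrrc19 KO pool and 137 in the WT pool. It thus reached the floor only in WT. The other brown fat markers, Cidea (-0.21), Dio2 (0.02) and Elovl3 (0.12), were under the floor in both pools. The part of these tissues in these isoforms was not tested. Cox7a2l, counted apart from the isoforms, was at 3890 in Lrrc19 KO and 3880 in WT (0.0039). Its dimmer probe sets gave -0.15 and -0.16.

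Cox7c, a small widespread subunit of complex IV, was measured only through the Lrrc19 KO pool. Its brighter probe set, which can match several transcripts, was at 244 in the Lrrc19 KO pool and 63.2 in the WT pool, and the other at 34.5 in the Lrrc19 KO pool and 17.5 in the WT pool. With the floor in place of the WT value the ratio was 1.92, and a 2-fold difference was not shown. The floor is the median of all probe set values and not a limit of detection. Cox7c was counted only through the pool where it was higher, so no fold is drawn from it. The other widespread subunits named above were at 7355 or more in the Lrrc19 KO pool. How well this probe set reads the Cox7c transcript was not tested. Without probe sets that can match several transcripts, Cox7c was under the floor.

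The members' differences were set against their mean intensity. Over the 77 genes the correlation was weak and its sign depended on the measure (Spearman 0.22, Pearson -0.34), as a description over genes that share the same arrays. The 29 members with a mean intensity of 6000 or more had a median of -0.09, against -0.03 for the 249 genes in that range. The widespread isoforms of complex IV other than Cox7c all lay in that range. Whether complex IV differs from other members of like brightness was not tested. The 31 members from 3000 to 6000 had a median of -0.22, against -0.01 for 471 genes, and the 10 from 1000 to 3000 a median of -0.23, against -0.03 for 2189 genes. All members in the highest and in the 1000 to 3000 range were below 0, as were 29 of 31 between them. Under 1000, 3 of 7 members were below 0. Within single genes, of the 36 with at least 2 probe sets at 1000 or more in both pools, 27 had a lower difference on the dimmest than on the brightest, by a median of -0.15. Because the brightest probe set stood for a gene, the values given above were in 27 of these 36 genes higher than those of the dimmest probe set. The part of brightness in these values was not tested.

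**Figure D3:**
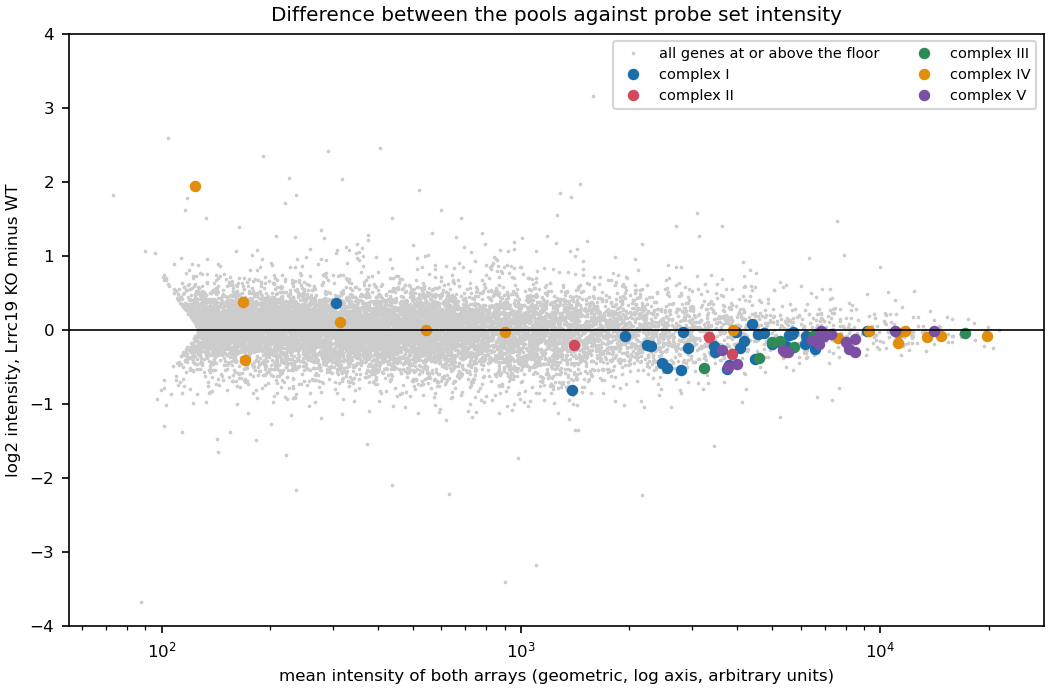
Log2 intensity difference, Lrrc19 KO minus WT (vertical axis), against the geometric mean intensity of both arrays (log axis, arbitrary units), for the 12518 measured genes (grey) and the respiratory chain genes (coloured by complex), 1 point per gene and 1 array per genotype. From 1000 upward 2 coloured points lie above 0 or on it and all others below, and the 7 dimmer ones lie on both sides.

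Genes that serve the chain without belonging to the named subunits were read from lists of known factors. Of 13 measured assembly factors of complex I, 12 were below 0 (92.3%) and 8 were at least 1.2-fold lower (61.5%), with a median of -0.37. Of all genes measured, 47.9% were below 0, 17.4% were at least 1.2-fold lower and 16.7% at least 1.2-fold higher. Nubpl, which delivers iron-sulfur clusters to complex I, was at 191 in the Lrrc19 KO pool and 374 in the WT pool (1.96-fold lower), and Ndufaf1, an early assembly factor, at 208 in Lrrc19 KO and 373 in WT (1.79-fold lower). Ndufaf4 was the single one above 0 (0.05). Of 27 measured assembly factors of complexes II to V, 23 were below 0 (85.2%), again with a median of -0.37. At least 1.2-fold lower were 18 (66.7%), and 1 was higher (3.70%). Surf1, needed to build complex IV, was at 938 in the Lrrc19 KO pool and 1560 in the WT pool (1.66-fold lower), and the copper chaperone Cox17 at 4860 in Lrrc19 KO and 3553 in WT (1.37-fold higher). The medians of both assembly lists stayed below 0 under each scaling tried. Whether their medians differ from those of the subunits was not tested.

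Other carriers and subunits, outside the naming rule, were read in the same way. Of 9 measured, 8 were below 0 (88.9%, against 47.9% of all genes measured) and the median was -0.30. With probe sets averaged the median was -0.15, with 5 of 8 below 0. Lowest was Etfdh, which passes electrons from fatty acid oxidation to ubiquinone, at 712 in the Lrrc19 KO pool and 1062 in the WT pool (1.49-fold lower). Cyc1, the cytochrome c1 of complex III, was at 6495 in Lrrc19 KO and 7953 in WT (1.22-fold lower), whereas cytochrome c itself, Cycs, was level at 9157 in Lrrc19 KO and 9178 in WT. Gpd2, the mitochondrial glycerol-3-phosphate dehydrogenase, was higher, at 1834 in the Lrrc19 KO pool and 1088 in the WT pool (1.68-fold). ND5, the single gene of mitochondrial DNA read here out of 13 listed, was at 16236 in the Lrrc19 KO pool and 14458 in the WT pool, a log2 difference of 0.17 that was -0.33 when centred on the spike-ins. ND5 thus lay above 0 and the median of the nuclear genes of complex I below it in the values as deposited, with 1 mitochondrial gene to go by.

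Of 15 genes of the TCA cycle and pyruvate dehydrogenase, 13 were below 0 (86.7%, against 47.9% of all genes measured), with a median of -0.19. They ran from Suclg1, a subunit of succinyl-CoA ligase (3411 in the Lrrc19 KO pool and 5159 in the WT pool, 1.51-fold lower), to the citrate synthase gene Cs (5640 in Lrrc19 KO and 4907 in WT, 0.20). Genes of the mitochondrial membranes and protein import were more evenly divided, with 11 of 17 below 0 (64.7%, against 47.9%). They ran from the import channel gene Timm23 (-0.41) to the adenine nucleotide translocator Slc25a4 (0.27). Their median was -0.10, or -0.06 after quantile normalization and after loess, and -0.04 with probe sets averaged. Of 13 regulators of mitochondrial genes, 6 were below 0, and the median was 0.04, or -0.04 with the array medians made equal and -0.46 when centred on the spike-ins. The coactivators Ppargc1a (737 in the Lrrc19 KO pool and 561 in the WT pool, 1.31-fold higher) and Ppargc1b (2454 in Lrrc19 KO and 1914 in WT, 1.28-fold higher) were above 0, and the mitochondrial transcription factors Tfam (-0.32), Tfb1m (-0.54) and Tfb2m (-0.46) were below.

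**Figure D4:**
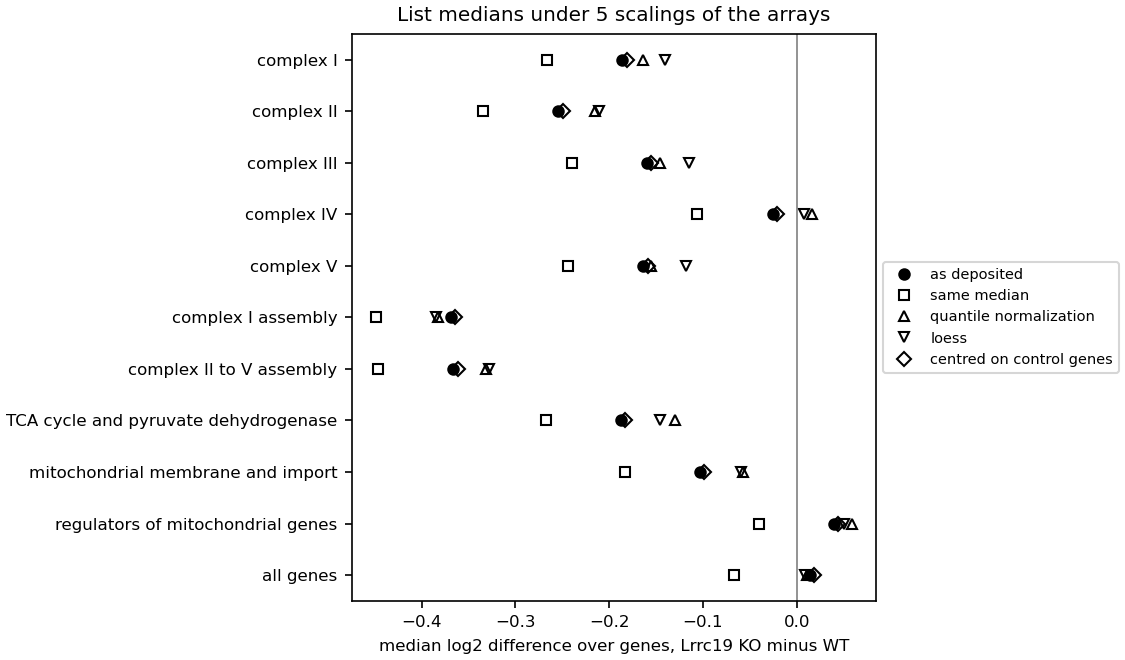
Median log2 difference over the genes of a list, Lrrc19 KO minus WT (horizontal axis), for the 5 complexes, 5 related lists and all measured genes, with the values as deposited (filled) and under 4 other scalings of the arrays (open; centring on the spike-ins is not drawn), without error bars since there was 1 array per genotype. Complexes I, II, III and V and both assembly lists lie left of 0 under all 5, complex IV lies at 0.016 and 0.0075 after quantile normalization and loess, and the regulators lie at -0.04 with the array medians made equal.

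Marker lists of other cells were read in the same pools, some of which differed. The 6 measured adipocyte markers had a median of -0.89, and the 7 on the array summed to 1786 in the Lrrc19 KO pool and 5477 in the WT pool, with most of the sum from Car3 (278 in Lrrc19 KO and 2941 in WT). Adipoq, a fat cell hormone, was at 24.4 in Lrrc19 KO and 313 in WT, and it and Retn reached the floor only in WT. Cidec (0.14) and Plin4 (0.14) were above 0, and Lep was under the floor in both pools. Ileum markers had a median of -0.60 over 4 genes (sum of 5 on the array 1887 in the Lrrc19 KO pool and 2740 in the WT pool), colon markers 0.97 over 7 (45414 in Lrrc19 KO and 38849 in WT), proliferation markers -0.38 over 6 (6894 in Lrrc19 KO and 8730 in WT, or a median of -0.16 with probe sets averaged), and smooth muscle markers 0.48 over 6. Of the colon markers, Car1, the brightest, was below 0 (18909 in Lrrc19 KO and 22420 in WT). Cdx2 was near 0 (0.05), and Hoxd13 reached the floor only in the Lrrc19 KO pool. Of the proliferation markers, Mki67 (0.20) and Mcm2 (0.05) were above 0, and Cdk1 was lowest (-0.76). Leukocyte markers had a median of 0.0030 over 4, with 2 on either side of 0, but they were not level. Adgre1 was at 363 in Lrrc19 KO and 606 in WT (-0.74) and Ptprc at -0.04. Itgax (0.05) and Cd3e (0.13) were above 0. With the floor at the 75th percentile the leukocyte median was -0.39 over 2. Plasma cell markers had a median of -0.14 over 3 (Igha was at 17423 in Lrrc19 KO and 19219 in WT). Epithelial markers, all from a list of enterocyte genes, had a median of 0.09 over 9, and none of them passed 1.2-fold. The sum of 10 on the array was 31661 in the Lrrc19 KO pool and 28137 in the WT pool. Some, such as Apoa4 (151 in Lrrc19 KO and 142 in WT), were near the floor. With the floor at the 75th percentile the median was 0.16 over 5. The part of these cells in the lower respiratory chain values was not tested.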

How the data were processed

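RNA pooled from 5 Lrrc19 KO mice and from 5 WT mice was measured on 1 Affymetrix array per genotype. The authors deposited 1 linear intensity per probe set and array (lowest 1, highest 25842), and the array medians were 131 (Lrrc19 KO) and 124 (WT). RMA is named, without its version, in the submitters' processing notes. RMA usually gives log2 values of equal distribution, whereas 99.97% of the ranked values differed between the arrays, so the scaling is not known, and another one would move every log2 difference.

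Values were set to at least 1 and log2 was taken (Python 3.11.15, numpy 2.4.6, pandas 2.3.3; loess by statsmodels 0.14.6 with a span of 0.3; figures with matplotlib 3.10.9). Of 45101 probe sets, 64 were controls, 34945 had 1 gene symbol, 932 had several and 9160 had none. Symbols of genes other than members were updated by gene identifier against RefSeq (GRCm38.p6), where 34741 probe sets were found. Left out were 9 probe sets whose several symbols include a member name. A gene was read from the probe set with the highest mean. The floor was the 50th percentile, an intensity of 127. The calculation of 2-fold calls was tested on simulated data with larger shifts in single genes, after centring. A small shift of a whole set was not simulated. With 1 array per genotype no test was made, and their number sets how precise any value can be. The members and lists were chosen with earlier results of these data known. Members named with values are those past 2-fold, the 3 largest in each direction of each complex, tissue isoforms and complex II. Genes whose probe sets differ by over 2-fold were to be named too (none did). Of each other list of mitochondrial genes, the most different gene in each direction was named. In the marker lists of other cells this was not done for each list. Further genes were named after their values were seen. Other scalings, probe set rules and floors were tried.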

Additional observations from a re-analysis of the deposited data

How the results depend on the processing

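Each of 6 medians and 4 counts was recomputed under 11 alternatives, and 91 values stayed within 0.1 on the log2 scale, with the same sign, or within 1.5 times the count. The median of complex IV changed sign, to 0.016 after quantile normalization and 0.0075 after loess. Centring on the spike-ins moved the medians to -0.64 for all members, -0.68 for complex I, -0.75 for complex II, -0.66 for complex III, -0.52 for complex IV and -0.66 for complex V, while the median of all genes moved to -0.48. It gave 6 members at least 2-fold lower in place of 0 (7.79%, against 5.25% of all genes), 74 at least 1.2-fold lower in place of 20 (96.1%, against 80.5% of all genes) and 1 at least 1.2-fold higher in place of 3, and it turned Cox4i2 to -0.12 and Ndufa4l2 to -0.14. The count at least 1.2-fold lower was 33 with the array medians made equal (42.9%, against 24.6% of all genes) and 13 after loess (16.9%, against 17.6%). The count at least 1.2-fold higher was 0 with the floor at the 75th percentile. The count at least 2-fold higher, Cox7c alone, was 0 with probe sets averaged, without probe sets that can match several transcripts, with the floor at the 75th percentile, and with the floor put in place of lower values. With probe sets averaged, the median of complex II was -0.15, Sdha was at 0.03 and Uqcrq at 0.03. Uqcrq was at 0.41 without probe sets that can match several transcripts. Across the alternatives, the median of the members lay below that of all genes by 0.10 to 0.19 on the log2 scale. No paired analysis was possible because each genotype had 1 pool.

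The spread between mice, and the scaling between the arrays, are not known. Differences of the size seen in most members are within the spread of probe sets of 1 gene, and rest on the count in one direction over many genes that share the same 2 arrays.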
